A study of Mus musculus with 4 samples.

Results

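The genes described here are 8 genes through which cells adjust their volume: the LRRC8 channel subunit genes Lrrc8a, Lrrc8b, Lrrc8c, Lrrc8d and Lrrc8e, the aquaporin gene Aqp3, and the cation-chloride cotransporter genes Slc12a2 and Slc12a7. They were chosen by name for their roles, by a rule that uses no measured value but was written with earlier results of these data known, out of 25814 genes listed for each library, and all 8 passed the filter on low counts that left 12614 genes for testing. RNA was sequenced from keratinocytes (KCs), the main cells of the epidermis, prepared from the tails of adult 129/sv mice and cultured without further treatment in serum-free medium with 0.06 mM calcium. The groups were wild type (WT, 2 libraries) and Nfat5-/- (2 libraries), the latter labelled as a knockout of the gene of NFAT5, the transcription factor that drives the response to high salt. Per the methods of the study, the WT mice were siblings, the tails travelled overnight on ice before the cells were prepared, and no tissue-specific driver of the knockout is named. The methods also describe animals of this background as small, with atrophied kidneys and lastingly raised blood sodium. The study mentions large variation between preparations of tail KCs.

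A cell that swells opens volume-regulated anion channels, which let chloride and small organic osmolytes such as taurine leave together with water. These channels are hexamers of LRRC8 proteins, in which LRRC8A is indispensable and the partners LRRC8B to LRRC8E set what passes through. A cell that shrinks takes up sodium, potassium and chloride through NKCC1, the product of Slc12a2, while KCC4, the product of Slc12a7, carries potassium and chloride out of swollen cells. AQP3 is the water and glycerol channel of the epidermis. Kinases of the WNK, SPAK and OSR1 families switch the cotransporters by phosphorylation, so that RNA levels show the amount of message and not transport.

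The libraries held 16219445 to 23494436 gene reads, and 3 reads, taken as the detection floor, equalled 0.128 to 0.185 CPM (counts relative to library size; counting error only). The keratinocyte keratins Krt5 and Krt14 were present at over 4990 RPKM in every library (RPKM: reads scaled to exon length and mapped reads). Nfat5 itself did not separate the labels: its RNA level was 1.67 and 3.002 RPKM in WT replicates 1 and 2 and 2.02 and 2.78 RPKM under the Nfat5-/- label, with a log2 fold change of 0.09 (adjusted p = 0.913, edgeR). The tables hold whole-gene reads, so a disrupted part of Nfat5 could not be examined and this value does not check the labels, by which the groups are given. Markers of other cell states moved with the labels. The summed level of 10 suprabasal and cornifying markers was 89.7 to 149 RPKM in WT and 252 to 365 RPKM under the Nfat5-/- label, with 4 of 10 higher at an adjusted p below 0.05 by edgeR. Of the 10, 8 were higher without overlap of the groups (21.6% of all genes tested). Krt10 was lower, at 0.854 and 0.684 RPKM in WT and 0.550 and 0.520 RPKM under the Nfat5-/- label, and the groups overlapped for Sbsn. For 5 smooth muscle markers the summed ranges were 151 to 184 and 518 to 819 RPKM, with 4 of the 4 tested higher, and for 5 melanocyte markers 6.99 to 7.29 and 2.04 to 2.89 RPKM, with 1 of the 4 tested lower. Acta2 made up most of the smooth muscle sum. The 8 basal keratinocyte markers summed to 11852 to 13836 RPKM in WT and to 11868 to 13548 RPKM under the Nfat5-/- label, with 0 called and 1 at an unadjusted p below 0.05 by edgeR. Fibroblast, immune, endothelial, and Merkel cell and sebocyte markers summed to between 0.0860 and 3.73 RPKM in every library, with Atoh1 and Mc5r at 0 throughout, 0 called in these lists by edgeR and 1, Krt79, at an unadjusted p below 0.05.

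Of the 8 genes, 0 passed an adjusted p of 0.05 by the quasi-likelihood test of edgeR, beside 1.27% of all genes tested. DESeq2 called 1, beside 2.31% of the 18043 genes with a read, including any that it left without an adjusted p. At a looser adjusted p of 0.1 edgeR called 1, Lrrc8d, beside 2.89% of all genes tested. At an unadjusted p below 0.05 stood 3 of the 8, Lrrc8d, Aqp3 and Lrrc8e, beside 14.6% of all genes tested. The RPKM values of the groups did not overlap for 6 of the 8 genes, beside 46.5% of all genes tested. The libraries labelled Nfat5-/- were lower for 5 of these (25.0% of all genes tested) and higher for 1 (21.6%). Over the 8 genes the median log2 fold change, libraries labelled Nfat5-/- over WT, was -0.16, beside -0.01 over all genes tested. The largest differences were a lower level of the osmolyte channel subunit gene Lrrc8d and a higher level of Aqp3. These are bulk cultures, in which fewer cells of a type and less RNA per cell cannot be told apart. The p-values measure the spread between these libraries, which may be technical because the labels do not tie them to separate animals. For its transcriptomes the study speaks of WT and Nfat5-/- sibling mice, without tying a library to an animal.

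**Figure D1:**
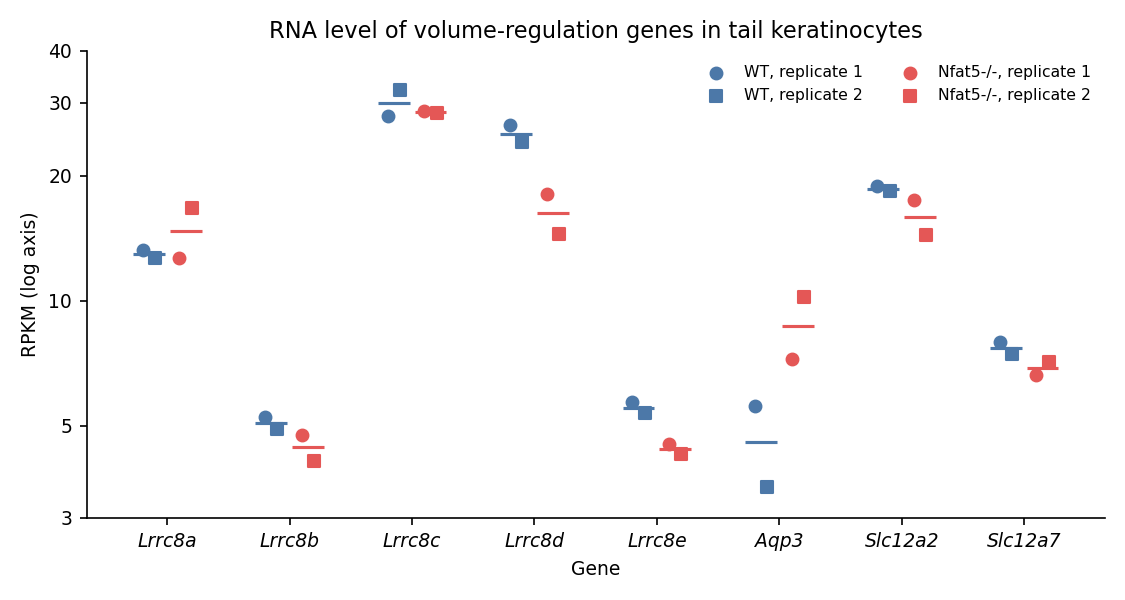
RNA level in RPKM (log axis) of each of the 8 genes in the 2 WT libraries (blue) and the 2 libraries labelled Nfat5-/- (red), with circles for replicate 1, squares for replicate 2 and bars for group means. The groups are apart for Lrrc8d and Aqp3 in opposite directions and overlap for Lrrc8a and Lrrc8c.

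The promoters of the genes with the smallest p-values among the 8, Lrrc8d and Aqp3, are shown because these genes differed most between the labels and in opposite directions. Each window runs from 250 bases before to 50 bases after the transcription start (RefSeq, GRCm38.p6, read 5′ to 3′ on the strand of the gene). Capitals mark matches on either strand to TGGAAA, the core that NFAT5 and other Rel proteins bind, or to TATAAA, the letters of a box that places transcription starts. The Lrrc8d window lies at chr5:105699719-105700018 on the plus strand and the Aqp3 window at chr4:41098134-41098433 on the minus strand.
Lrrc8d: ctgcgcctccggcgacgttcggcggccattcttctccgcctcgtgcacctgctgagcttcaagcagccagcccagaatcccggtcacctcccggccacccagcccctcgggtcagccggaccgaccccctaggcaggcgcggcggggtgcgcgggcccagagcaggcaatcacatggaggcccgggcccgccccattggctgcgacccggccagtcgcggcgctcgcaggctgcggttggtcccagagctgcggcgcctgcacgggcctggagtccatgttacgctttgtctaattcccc
Aqp3: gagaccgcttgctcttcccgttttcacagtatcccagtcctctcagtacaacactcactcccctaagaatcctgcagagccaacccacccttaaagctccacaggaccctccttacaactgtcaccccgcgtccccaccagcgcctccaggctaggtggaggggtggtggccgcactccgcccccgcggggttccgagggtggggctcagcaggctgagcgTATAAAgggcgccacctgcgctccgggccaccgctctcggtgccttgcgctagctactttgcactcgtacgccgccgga
The Aqp3 window holds 1 TATAAA, whose first base lies at -29 from the start, and Lrrc8d has none in either of its 2 annotated windows. TATAAA occurred in 13.6% of the 32851 windows of the whole table. Neither window holds TGGAAA, nor does any of the 9 windows of the 7 genes found in the table (Slc12a2 had no entry), while 21.4% of all windows do. The longer tonicity-responsive enhancer consensus, which contains TGGAAA, was in 0 of the 9 windows and in 4.96% of all windows. The 2 windows of Slc12a7 overlap, so the 9 are not all separate promoters. Sequence outside the windows was not searched, so these counts do not show whether the genes have such sites elsewhere. The Lrrc8d window has 71.3% G and C and 31 CpG pairs, and the Aqp3 window 64% and 21.

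Lrrc8b, Lrrc8c and Lrrc8d lie in this order on the plus strand of chromosome 5, within 416662 bases. Lrrc8b (ENSMUSG00000070639) spans positions 105415775 to 105490074, Lrrc8c (ENSMUSG00000054720) 105519388 to 105613018, and Lrrc8d (ENSMUSG00000046079) 105699969 to 105832436 on GRCm38. The gaps between them are 29313 and 86950 bases. Lrrc8a (ENSMUSG00000007476) is on chromosome 2 and Lrrc8e (ENSMUSG00000046589) on chromosome 8. In the GENCODE M21 annotation, whose start and end equalled those of the deposited tables for 8 of 8 genes, all coding sequence of the longest Lrrc8d product lies in 1 exon, and 88.8% to 94.3% of that of the other LRRC8 genes lies in a single exon.

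Lrrc8a encodes the subunit that every functional channel needs. Its RNA level was 13.3 and 12.7 RPKM in WT replicates 1 and 2 and 12.7 and 16.7 RPKM under the Nfat5-/- label. The groups overlapped, and only replicate 2 of the libraries labelled Nfat5-/- stood above both WT libraries. The log2 fold change was 0.20 (SE 0.15, adjusted p = 0.603, edgeR) with a 95% interval of -0.16 to 0.55. Its direction turned to -0.028 without that library and to -0.22 in a count of uniquely placed exon reads. Such reads are few for this gene: 25 and 41 in WT and 26 and 35 under the Nfat5-/- label, which is 1.97% to 3.39% of its exon reads. Exons of the overlapping gene Gm28035, on the same strand, cover 66.2% of the 4308 exon bases of Lrrc8a, and the tables gave Gm28035 between 1 and 19 gene reads per library, beside 960 to 1383 for Lrrc8a. The share of reads not uniquely placed was thus larger than the share of bases in common. The study names the default settings of its software, and how these assign such reads is not described in the sources used here. The level of Lrrc8a therefore rests mostly on reads that were not uniquely placed.

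Lrrc8d encodes the partner that lets uncharged osmolytes and taurine through the channel. Its RNA level was 26.5 and 24.1 RPKM in WT and 18.1 and 14.4 RPKM under the Nfat5-/- label. Both libraries labelled Nfat5-/- lay below both WT libraries, with means of 25.3 ± 1.69 RPKM (SD, n = 2) in WT and 16.3 ± 2.56 RPKM (SD, n = 2) under the Nfat5-/- label. The ratio of the means was 0.643. In gene reads, the log2 fold change was -0.60 (SE 0.11, 95% interval -0.87 to -0.33) and the adjusted p was 0.0647 with edgeR, beside 0.00112 unadjusted. The gene thus missed the threshold in edgeR. It passed with DESeq2 at an adjusted p of 0.00225, in edgeR without WT replicate 2 at an adjusted p of 0.0413 (3.70% of all genes called), and in edgeR without a filter on low counts at an adjusted p of 0.000129 (6.30% of all genes called). It did not pass in the other 12 alternatives, and the adjusted p rose to 0.114 without WT replicate 1, to 0.127 without replicate 1 and to 0.395 without replicate 2 of the libraries labelled Nfat5-/- (edgeR). In each of the 15 alternatives the direction was the same.

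Reads outside the annotated exons of Lrrc8d were also fewer under the Nfat5-/- label once scaled. Introns held 258 and 432 reads in WT and 292 and 247 under the Nfat5-/- label, which is 11.0% to 15.9% of the gene reads, beside at most 5.13% for each of the other 7 genes. Scaled to gene reads these were 15.9 and 19.99 CPM in WT and 12.4 and 13.2 under the Nfat5-/- label, so the groups did not overlap. Of the intron reads, 105 and 137 in WT and 76 and 59 under the Nfat5-/- label were uniquely placed, or 6.47 and 6.34 CPM and 3.23 and 3.16 CPM, again without overlap. The pseudogene Rps15a-ps5 lies in an intron of Lrrc8d on the opposite strand. The exon reads, 2077 and 2517 in WT and 2055 and 1302 under the Nfat5-/- label, were all uniquely placed. The tables count 4722 exon bases for Lrrc8d, while the joined exons of its 10 GENCODE M21 transcripts cover 12573 bases. Of these, 218 are shared with the antisense gene Lrrc8dos, and the library kit named in the labels does not mark strand, so reads of the 2 genes cannot be told apart there.

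Lrrc8c, which encodes a partner that favours chloride, had the highest RNA level of the 8 genes in both groups. It stood at 27.8 and 32.2 RPKM in WT and 28.7 and 28.2 RPKM under the Nfat5-/- label. The values of the libraries labelled Nfat5-/- fell between those of the WT libraries. The log2 fold change was -0.08 (SE 0.10, adjusted p = 0.776, edgeR), with a 95% interval of -0.32 to 0.16, which holds no difference as large as that estimated for its neighbour Lrrc8d.

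The remaining subunit genes had the lowest levels per length of the 5 LRRC8 genes. Lrrc8e, whose product makes channels that oxidation activates, was at 5.69 and 5.35 RPKM in WT and 4.53 and 4.27 RPKM under the Nfat5-/- label. The groups were apart, and the log2 fold change was -0.31 (SE 0.13, adjusted p = 0.327, edgeR), with a 95% interval of -0.61 to -0.012. Lrrc8b, another partner of LRRC8A, was at 5.24 and 4.92 RPKM in WT and 4.75 and 4.12 RPKM under the Nfat5-/- label. The groups were again apart, by a margin smaller than the range within either group, and the log2 fold change was -0.17 (SE 0.12, adjusted p = 0.555, edgeR).

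**Figure D2:**
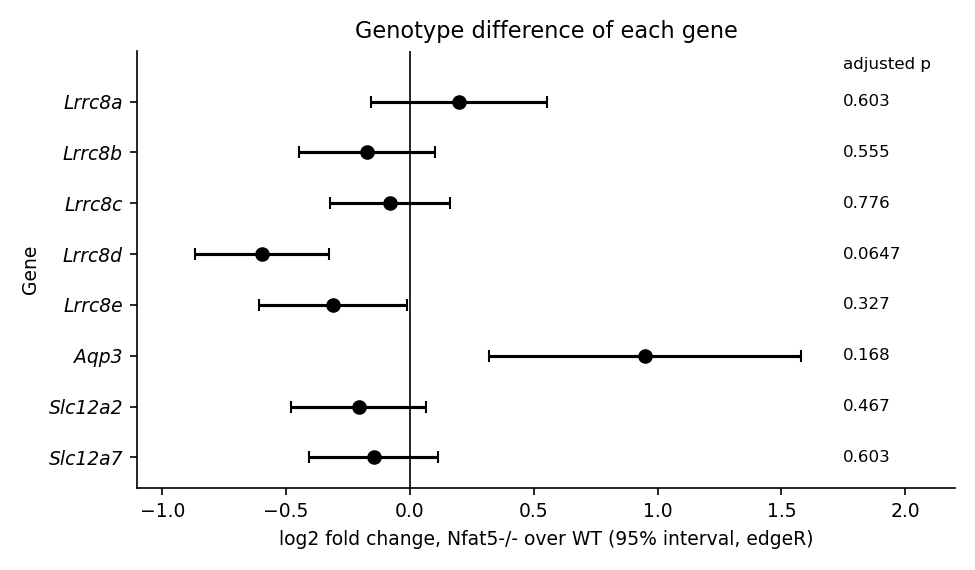
Log2 fold change of each of the 8 genes, libraries labelled Nfat5-/- over WT, with its 95% interval from edgeR and the p-value adjusted over all 12614 genes tested. The intervals of Lrrc8d, Lrrc8e and Aqp3 leave out 0, and the smallest adjusted p, that of Lrrc8d, is 0.0647.

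Since the subunits share a hexamer, their make-up was also described as the share of each gene in the summed RPKM of the 5 genes of a library. Lrrc8d took 33.7% and 30.4% in WT and 26.3% and 21.3% under the Nfat5-/- label. Lrrc8c took 35.4% and 40.7% in WT and 41.7% in each library under the Nfat5-/- label, and Lrrc8a 16.9% and 16.0% in WT and 18.5% and 24.6% under the Nfat5-/- label. The share of Lrrc8d was thus lower in both libraries labelled Nfat5-/- and those of Lrrc8c and Lrrc8a higher, for Lrrc8c by little over WT replicate 2. Lrrc8e took 7.25% and 6.75% in WT and 6.59% and 6.30% under the Nfat5-/- label, also lower in both, while Lrrc8b took 6.08% to 6.91% and its groups overlapped. The sum itself was 78.5 and 79.2 RPKM in WT and 68.7 and 67.8 RPKM under the Nfat5-/- label. For each of these differences without overlap the exact two-sided permutation test gave p = 0.333, the smallest p that 2 against 2 libraries allow, so a share cannot pass a threshold of 0.05 here.

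Ratios between genes do not depend on library size. Lrrc8d over Lrrc8c was 0.951 and 0.747 in WT and 0.630 and 0.511 under the Nfat5-/- label. Lrrc8d over Lrrc8a was 1.99 and 1.90 in WT and 1.42 and 0.865 under the Nfat5-/- label, so Lrrc8d exceeded Lrrc8a in 3 of 4 libraries. With Lrrc8a set aside because few of its reads were uniquely placed, Lrrc8d held 40.6% and 36.2% of the RPKM of the other 4 genes in WT and 32.2% and 28.3% under the Nfat5-/- label. On that base Lrrc8c took 42.7% and 48.4% in WT and 51.2% and 55.3% under the Nfat5-/- label. The lower share of Lrrc8e was not kept, at 8.73% and 8.04% in WT and 8.08% and 8.36% under the Nfat5-/- label, where the groups overlapped (exact permutation p = 1). Lrrc8b, whose groups overlapped with Lrrc8a counted, was then higher in both, with 8.04% and 7.39% in WT against 8.48% and 8.07% (exact permutation p = 0.333). The order of the groups for these minor subunits thus depends on the Lrrc8a reads, while that for Lrrc8d and Lrrc8c does not.

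**Figure D3:**
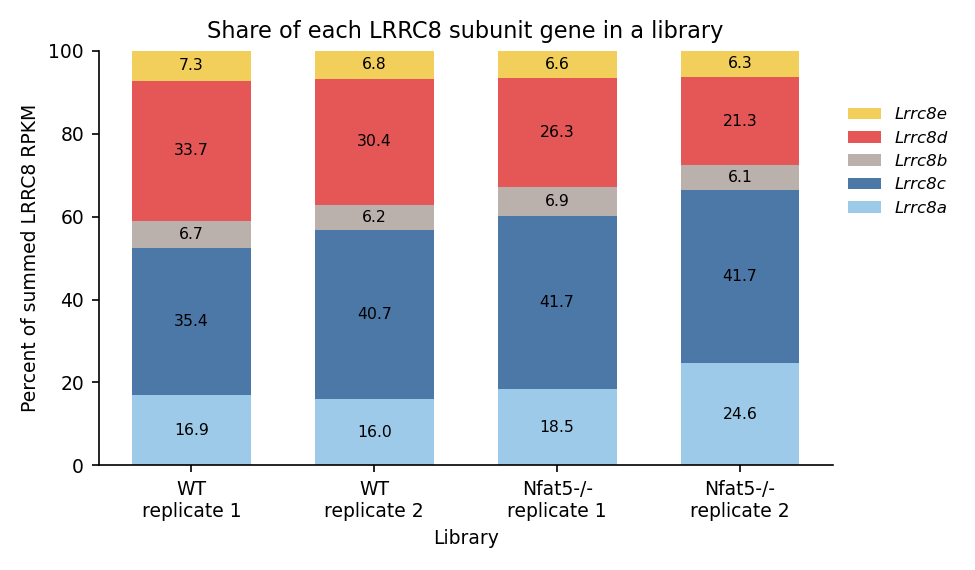
Share of each LRRC8 subunit gene, in percent of the summed LRRC8 RPKM of a library, as stacked bars for the 4 libraries. The Lrrc8d segment is 33.7% and 30.4% in WT and 26.3% and 21.3% under the Nfat5-/- label.

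Aqp3 (ENSMUSG00000028435) lies on the minus strand of chromosome 4, positions 41092722 to 41098183. Its RNA level was 5.59 and 3.56 RPKM in WT and 7.22 and 10.2 RPKM under the Nfat5-/- label. Both libraries labelled Nfat5-/- were above both WT libraries, and relative to their mean the libraries of either group differed more among themselves than for any other of the 8 genes, with means of 4.57 ± 1.44 RPKM (SD, n = 2) and 8.71 ± 2.11 RPKM (SD, n = 2). The ratio of the means was 1.91. In gene reads, which were 166 and 140 in WT and 308 and 345 under the Nfat5-/- label, the log2 fold change was 0.95 (SE 0.27, adjusted p = 0.168, edgeR), with a 95% interval of 0.32 to 1.58. Leaving out WT replicate 1 gave 1.31 with an adjusted p of 0.0385 in edgeR (2.05% of all genes called), and fitting without a filter on low counts gave 0.95 with an adjusted p of 3.55e-05 (6.30% of all genes called). The gene did not pass in the other 13 alternatives, in which edgeR gave 0.64 (adjusted p = 0.235) without WT replicate 2, and 1.19 (adjusted p = 0.188) without replicate 1 and 0.66 (adjusted p = 0.746) without replicate 2 of the libraries labelled Nfat5-/-.

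The spliced message gave the same order for Aqp3. Reads over exon junctions numbered 29 and 22 in WT and 70 and 77 under the Nfat5-/- label, or 15.8% to 22.8% of its exon reads, and introns held 1 or 2 reads per library. All exon reads were uniquely placed. The summed suprabasal and smooth muscle markers given above were also higher under the Nfat5-/- label, though not each suprabasal marker. The part of these cell states in the higher Aqp3 and lower Lrrc8d was not tested.

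Slc12a2 (ENSMUSG00000024597) encodes NKCC1, which loads the cell with ions. Its RNA level was 18.9 and 18.4 RPKM in WT and 17.5 and 14.4 RPKM under the Nfat5-/- label. The groups were apart, but the libraries labelled Nfat5-/- differed more from each other than the nearer of them from WT. The log2 fold change was -0.21 (SE 0.12, adjusted p = 0.467, edgeR), with a 95% interval of -0.48 to 0.06.

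Slc12a7 (ENSMUSG00000017756, chromosome 13, positions 73733094 to 73816754) encodes KCC4, which unloads the cell. It was at 7.94 and 7.43 RPKM in WT and 6.64 and 7.11 RPKM under the Nfat5-/- label, with the groups apart. The log2 fold change was -0.15 (SE 0.11, adjusted p = 0.603, edgeR), with a 95% interval of -0.41 to 0.12. Slc12a2 exceeded Slc12a7 in each library. The ratio of loader to unloader message was 2.38 and 2.47 in WT and 2.63 and 2.02 under the Nfat5-/- label, and the groups overlapped (exact permutation p = 1).

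By level per length, the order in WT was Lrrc8c, Lrrc8d, Slc12a2, Lrrc8a, Slc12a7, Lrrc8e, Lrrc8b and Aqp3, and the ranges of neighbours overlapped only for Lrrc8b and Aqp3. In the libraries labelled Nfat5-/- the order was Lrrc8c, Lrrc8d, Slc12a2, Lrrc8a, Aqp3, Slc12a7, Lrrc8b and Lrrc8e. There the ranges of Lrrc8d and Slc12a2, of Slc12a2 and Lrrc8a, and of Lrrc8b and Lrrc8e overlapped. By mean, Aqp3 thus stood last among the 8 genes in WT and above Slc12a7, Lrrc8b and Lrrc8e under the Nfat5-/- label. In WT replicate 1, however, it exceeded Lrrc8b, at 5.59 against 5.24 RPKM, and its WT range also overlapped that of Lrrc8e. Among all genes tested, the mean WT level of Lrrc8c was at the percentile 84.0 and that of Aqp3 at 43.2. Positions between genes rest on the exon lengths of the tables, which for Slc12a2 (6520 bases), Slc12a7 (5794) and Lrrc8d are shorter than the joined GENCODE M21 exons (10920 and 12669 bases for the cotransporters).

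The genes with the pattern most like Lrrc8d over the 4 libraries, out of 9057 compared, were Traip, Trim47 and Ocel1. Likeness was the root mean square difference of centred log2(RPKM + 0.1) values, which was 0.031 for Traip, 0.039 for Trim47 and 0.042 for Ocel1. Trim47, for example, was at 17.2 and 16.0 RPKM in WT and 11.1 and 9.17 RPKM under the Nfat5-/- label.

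Other genes of volume regulation were taken from 7 lists with 75 genes, of which 74 had values and 52 were tested. Of these, 0 passed the adjusted threshold in edgeR (1.27% of all genes tested) and 0 in DESeq2, and 10 had an unadjusted p below 0.05 (14.6% of all genes tested). Positive log2 fold changes numbered 28 and negative ones 24, with a median of 0.04. The 10 comprised 1 aquaporin, 2 kinases of the WNK and SPAK group, 2 of the sodium-proton exchanger list, 2 of the anion exchanger list and 3 cation channels. Fitting without a filter on low counts called 6 genes, namely Aqp9, Scnn1a, Slc4a4, Slc9a3r1, Slc9a5 and Trpv4, in a setting that called 1137 of 18043 genes.

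Of the other aquaporins, 2 of 10 were tested and 0 called, and Aqp6 and Aqp12 had no read. The glycerol channel gene Aqp9 was at 1.46 and 0.541 RPKM in WT and 0.355 and 0.194 RPKM under the Nfat5-/- label. Its log2 fold change was -1.69 (SE 0.50, adjusted p = 0.190, edgeR), opposite in sign to that of Aqp3. Of the other SLC12 genes, 3 of 7 were tested, 0 were called and all 3 had negative log2 fold changes (median -0.13). The most abundant, Slc12a4 for the cotransporter KCC1, was at 20.8 and 17.9 RPKM in WT and 17.4 RPKM in each library under the Nfat5-/- label. KCC1 message was therefore above that of KCC4 in every library.

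Among the WNK, SPAK and OSR1 kinases and partners, 8 of 10 genes were tested and 0 called. The gene of WNK1, a chloride-sensing kinase that starts the cascade, was at 29.7 and 29.2 RPKM in WT and 29.4 and 38.6 RPKM under the Nfat5-/- label, and the groups overlapped. Stk39, which encodes the kinase SPAK that phosphorylates NKCC1, was at 7.60 and 7.75 RPKM in WT and 10.8 and 8.84 RPKM under the Nfat5-/- label, with a log2 fold change of 0.35 (SE 0.13, adjusted p = 0.274, edgeR). Among sodium-proton exchangers, which work beside NKCC1 in volume recovery, 8 of 10 were tested and 0 called. The scaffold gene Slc9a3r1 was at 58.6 and 71.0 RPKM in WT and 87.0 and 84.6 RPKM under the Nfat5-/- label, with a log2 fold change of 0.42 (SE 0.12, adjusted p = 0.165, edgeR).

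Of the anion exchangers and bicarbonate transporters, 9 of 10 were tested and 0 called. The chloride-bicarbonate exchanger Slc4a2 was at 14.4 and 19.98 RPKM in WT and 20.1 and 22.2 RPKM under the Nfat5-/- label, and Slc4a11 at 20.2 and 20.6 RPKM against 16.5 and 14.9 RPKM, with log2 fold changes of 0.31 (adjusted p = 0.439, edgeR) and -0.36 (adjusted p = 0.175, edgeR). Other anion channels had 13 of 16 tested, 0 called and 0 at an unadjusted p below 0.05 in edgeR. Tmem206, whose product is a chloride channel opened by extracellular acid, was at 8.86 and 7.26 RPKM in WT and 6.77 and 6.53 RPKM under the Nfat5-/- label (log2 fold change -0.26, adjusted p = 0.495, edgeR). Clic1 was the most abundant of this list at 248 to 286 RPKM.

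Of 12 mechanosensitive and volume-linked cation channel genes, 9 were tested and 0 called. Trpv4, a calcium channel that opens on swelling, was at 8.99 and 8.22 RPKM in WT and 11.3 and 11.7 RPKM under the Nfat5-/- label, and its log2 fold change was 0.45 (SE 0.11, adjusted p = 0.123, edgeR). Kcnn4, the calcium-activated potassium channel gene, was at 80.8 and 87.8 RPKM in WT and 99.1 and 92.8 RPKM under the Nfat5-/- label (log2 fold change 0.20, adjusted p = 0.410, edgeR). The remaining genes with an unadjusted p below 0.05, named after their values were seen, were all low. Wnk4, Slc4a4, Kcnk5 and Scnn1a were at 0.951 RPKM or less in each library, and Slc9a5 at 0.719 to 2.01 RPKM.

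**Figure D4:**
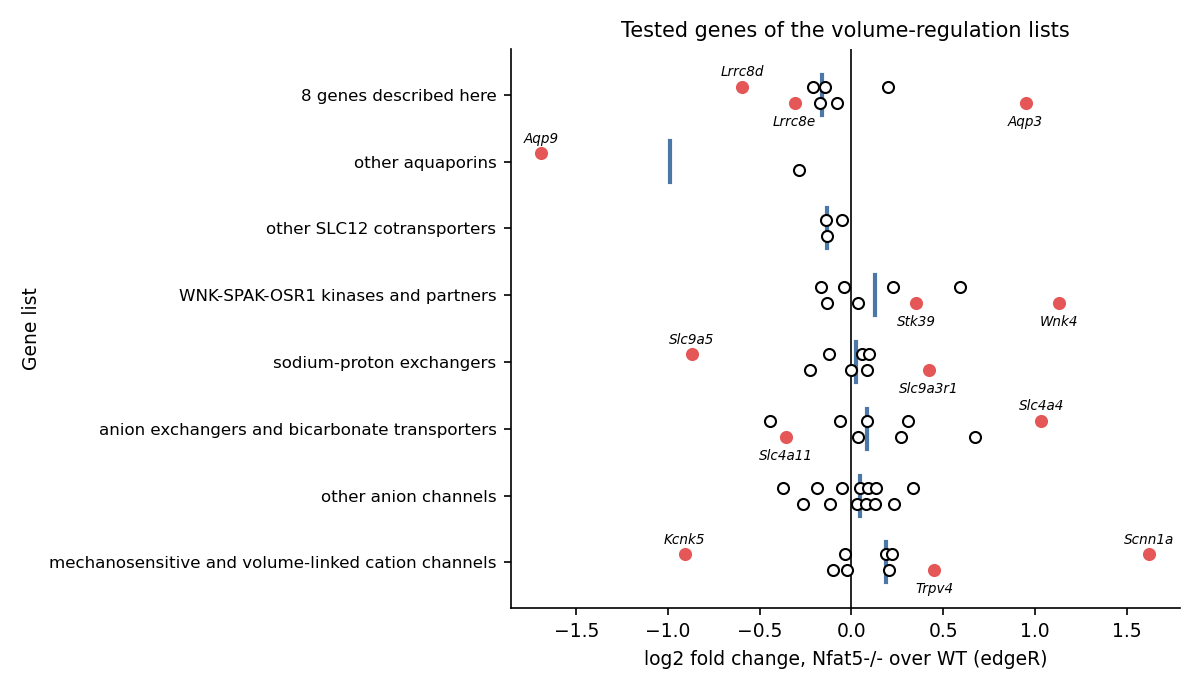
Log2 fold change of each tested gene, libraries labelled Nfat5-/- over WT, for the 8 genes described here and the 7 further lists of volume-regulation genes. Red points have an unadjusted p below 0.05 (3 of 8 and 10 of 52), open points do not, and blue bars are medians.

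The fold changes kept their direction under each of 15 alternative settings for 7 of the 8 genes, the exception being Lrrc8a. They ranged from -0.72 to -0.49 for Lrrc8d, from 0.64 to 1.31 for Aqp3 and from -0.36 to -0.25 for Lrrc8e. An adjusted p below 0.05 was reached in 3 of 15 settings for Lrrc8d and in 2 of 15 for Aqp3, and in 0 of 15 for each of the other 6 genes.

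**Figure D5:**
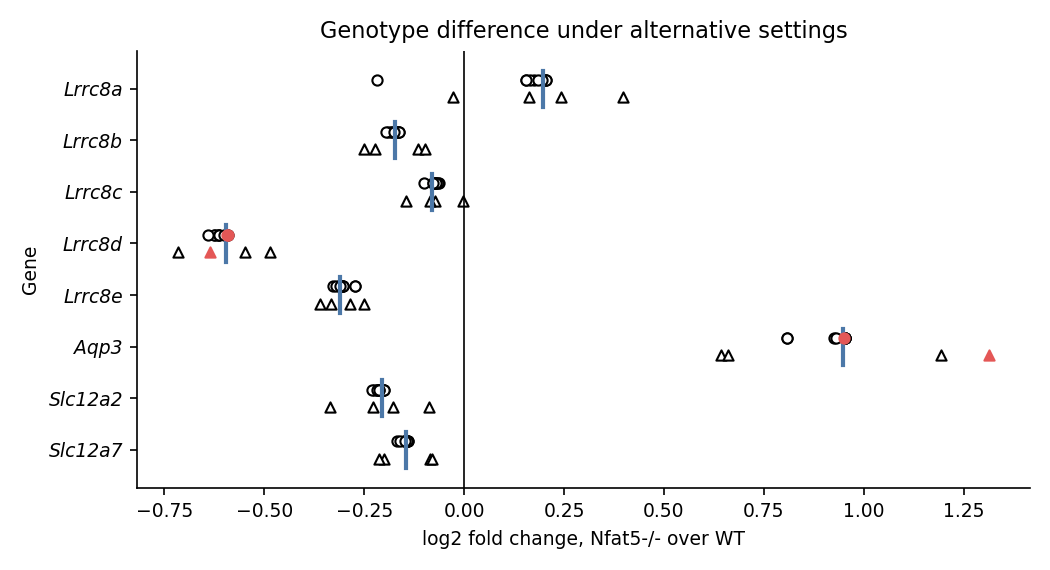
Log2 fold change of each gene, libraries labelled Nfat5-/- over WT, under 15 alternative settings: circles for other filters, scalings, counts and tools, triangles for leaving out 1 library, red for an adjusted p below 0.05, and blue bars for the value given above. Lrrc8a crosses 0, and the red points belong to Lrrc8d and Aqp3.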

How the data were processed

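The authors aligned polyadenylated RNA reads to GRCm38 with the CLC Genomics Workbench v12.0 and deposited per-gene tables with whole-number counts of gene, exon, intron and uniquely placed reads, not normalized. The deposited RPKM values, which the authors scaled to exon length and mapped reads, are shown as levels. The authors name the default settings of this software. How these assign reads that are not uniquely placed is not described in the sources used here, so counts of overlapping genes are uncertain. Group and replicate number come from the sample titles, and no batch is given.

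Gene reads of all 4 libraries were tested with edgeR 4.0.16 in R 4.3.3 (filterByExpr, TMM factors, quasi-likelihood test of genotype, no covariates). The tests were two-sided, and Benjamini-Hochberg adjustment covered all 12614 genes, with a threshold of 0.05. An SE is the log2 fold change divided by the square root of F. The procedure was also run on simulated counts, whose outcome is not given here. Shares and ratios were compared by exact permutation. Counts of replicates differed by more than counting noise (chi-square per degree of freedom 17.8 and 18.4), so they are not 1 library deposited 2 times, and each counted as 1 sample as labelled; this does not show separate animals. Alternatives were other scaling factors and filters, DESeq2 1.42.0, limma 3.58.1 on log2(RPKM + 1) and log2(RPKM + 0.1), exon and uniquely placed reads, a replicate block and leaving out each library.

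The members and lists were chosen with earlier results of these data known. All 8 members are named, and from each list the most abundant gene and that with the smallest p. A further result is not reported here. Of the list genes, 1 symbol (Pacc1) was not analysed here under that name; its older symbol Tmem206 was. Overlapping genes and promoter windows come from GENCODE M21 and RefSeq.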

Additional observations from a re-analysis of the deposited data

How the results depend on the processing

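The number of the 8 genes past the threshold, 0 with edgeR, was 2 without a filter on low counts (Lrrc8d at -0.59 and Aqp3 at 0.95), 1 with DESeq2 (Lrrc8d at -0.59) and 1 at an adjusted p below 0.1 (Lrrc8d; 2.89% of all genes). Leaving out 1 library gave 0 to 1, with Aqp3 past it without WT replicate 1 and Lrrc8d without WT replicate 2. In these fits the log2 fold change ran from -0.72 to -0.49 for Lrrc8d, from 0.64 to 1.31 for Aqp3 and from -0.028 to 0.40 for Lrrc8a. A group left with 1 library is assumed to vary like the other. For Lrrc8a, uniquely placed exon reads gave -0.22, a mean of 0.389 RPKM in WT and 0.338 RPKM under the Nfat5-/- label, and a share of the LRRC8 sum of 0.588% and 0.636%, since few of its reads are unique. Of the other volume-regulation genes, 0 passed with edgeR, 6 without a filter on low counts, 1 with exon reads and 1 with uniquely placed exon reads (Slc4a4 in both), and 0 to 2 with 1 library left out (Scnn1a and Slc4a4 without WT replicate 1, Aqp9 and Slc9a5 without WT replicate 2). Over all genes, 160 were called with edgeR, and the alternatives called 0 to 1137: 1137 of 18043 without a filter, 416 with DESeq2, 268 without WT replicate 1, 478 without WT replicate 2, 31 without replicate 1 and 16 without replicate 2 of the libraries labelled Nfat5-/-, and 0 with limma on log2(RPKM + 1) with no filter. The cause of these differences was not tested. Same-numbered libraries did not deviate together (correlation -0.065 over 12614 genes). With so few libraries this value cannot show whether they share a litter or a preparation. With the replicate block, 132 genes were called, Lrrc8d had a log2 fold change of -0.60 (adjusted p = 0.0799, edgeR) and Aqp3 0.95 (adjusted p = 0.224, edgeR), and 0 of the 8 genes passed.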
